A study of Ovis aries with 8 samples.

Results

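The ion channels that set the membrane potential and the calcium entry of insulin-secreting cells were described across islets of 8 sheep fetuses. The genes were ABCC8, KCNJ11, KCNJ6, KCNK16, CACNA1A, CACNA1C, CACNA1D, CACNB2 and TRPM5, chosen by symbol and not by their values. Of these 9 symbols, 8 had a row among the 25000 rows of the deposited table, and 7 had a mean of at least 1 FPKM over the 8 animals and were tested. FPKM is a library's fragment number for a gene divided by the transcript's length and by the library's total of mapped fragments. KCNJ11 had no row under its symbol, so its level is not reported here, and TRPM5 lay below the filter.

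In a beta cell, glucose metabolism raises ATP and closes the ATP-sensitive potassium (KATP) channel, which depolarises the membrane, opens voltage-gated calcium channels and so triggers the release of insulin granules. Norepinephrine, acting through alpha2-adrenergic receptors coupled to inhibitory G proteins, acutely stops this release, and G protein-gated inward rectifiers, calcium channels and exocytosis are known points of that control. Sustained high norepinephrine is a feature of fetal growth restriction, in which fetal insulin secretion is low.

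The NE-Infused group was 4 near-term singleton fetuses of Columbia-Rambouillet crossbred ewes, given norepinephrine intravenously for 7 days at 1 µg/min on day 1, 2 µg/min on days 2 to 4 and 4 µg/min on days 5 to 7. The Saline-Control group was 4 fetuses of the same cross that received the diluent, ascorbic acid in saline. Islets were isolated and picked by hand. Gestational age was 137 to 139 days in the NE-Infused fetuses and 139 to 140 days in the controls, and fetal weight was 2.8 to 3.7 kg in the NE-Infused fetuses and 3.6 to 5.0 kg in the controls. Only 139 days occurred in both groups, so a model with gestational age separates age from treatment poorly. NE-Infused 3 and Saline-Control 2 were the female fetuses.

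Summed FPKM per library was 773581 to 1075998 in NE-Infused islets and 768021 to 1112624 in control islets. The submitters' animal numbers begin with 09 (NE-Infused 1, 3 and 4, Saline-Control 2) or 10 (NE-Infused 2, Saline-Control 1, 3 and 4), and the labels do not say what these digits stand for. Libraries numbered 10 summed to 768021 to 796149 FPKM and those numbered 09 to 981583 to 1112624 FPKM, so the digits move with the make-up of the libraries and, in part, with treatment. They also move with age, weight and sex. Fetuses numbered 09 were at 137 to 139 days and 2.8 to 3.6 kg, and those numbered 10 at 139 to 140 days and 3.7 to 5.0 kg. Both female fetuses were numbered 09. Differences between the numbers cannot be told apart from differences in these traits. The islet label was checked against markers, with 5 of 7 beta cell symbols listed, while INS and MAFA were not. PDX1, the beta cell transcription factor, was at 226 to 317 FPKM in NE-Infused islets and 211 to 279 FPKM in controls. Log2 differences were 0.08 for PDX1, 0.21 for NKX6-1 and 0.57 for UCN3. They were -0.40 for SLC2A2 and -0.28 for G6PC2. All 4 tested alpha cell genes had higher means in NE-Infused islets, with a median log2 difference of 0.50. All 3 tested endothelial genes had lower means, with a median of -0.41. The lowest limma adjusted p of the beta, alpha and endothelial lists was 0.669. Summed acinar markers (7 of 10 listed, none at 0 in all animals) were 136 to 1013 FPKM in NE-Infused islets and 122 to 165 FPKM in controls. All 6 tested acinar genes had higher means in NE-Infused islets, with a median log2 difference of 1.37, and 0.61 with the number digits in the model. CPB1 had no overlap, at 58.4 to 140 FPKM against 15.5 to 39.0 FPKM in controls, as did 1.88% of all tested genes in that direction. Its log2 difference was 2.08 (limma unadjusted p = 0.000319, adjusted p = 0.352). That of CELA1 was 1.04 (limma unadjusted p = 0.00469, adjusted p = 0.523). Summed stromal markers (5 of 5 listed) were 271 to 1654 FPKM, highest in NE-Infused 4, and 401 to 649 FPKM in controls. The delta cell marker SST (1 of 2 listed) was at 499 to 1858 FPKM in NE-Infused islets and 113 to 928 FPKM in controls (log2 difference 1.74, limma unadjusted p = 0.0286, adjusted p = 0.628). Summed duct markers (3 of 5 listed) were 139 to 392.2 FPKM in NE-Infused islets and 68.9 to 167 FPKM in controls. Nearly all of this sum was KRT7, with a log2 difference of 0.99 (limma unadjusted p = 0.0247, adjusted p = 0.600). The other listed duct markers did not follow it. SOX9 had a log2 difference of 0.09 (limma adjusted p = 0.930). CFTR lay below the filter, with means of 0.480 FPKM in NE-Infused islets and 0.555 FPKM in controls. The part of these other cells in the results on channels was not tested, and in bulk islets fewer cells of a type and less RNA per cell cannot be told apart.

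None of the 7 tested channel genes passed the test between NE-Infused and control islets, and every one of them had overlapping groups. ABCC8, KCNK16, CACNA1C and CACNB2 had higher means and KCNJ6, CACNA1A and CACNA1D lower means in NE-Infused islets, although CACNA1C and CACNB2 changed sign with FPKM scaled to equal totals and KCNJ6, KCNK16, CACNA1A and CACNA1D did with gestational age in the model. The differences in log2(FPKM + 1), a scale that understates changes of low genes, ran from -0.40 for CACNA1A to 0.34 for KCNK16, with a median of 0.07, against a median of 0.02 over all tested genes. With limma and Benjamini-Hochberg adjustment over 13252 genes, 0 of the 7 had an adjusted p below 0.05, against a background of 0.0% (0 genes). At an unadjusted p below 0.05 there were 0 of 7, against 7.36% of all tested genes. Group ranges without overlap were also found for 0 of 7, against a background of 4.23%. The lowest adjusted p among the 7 was 0.701 for KCNK16.

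**Figure D1:**
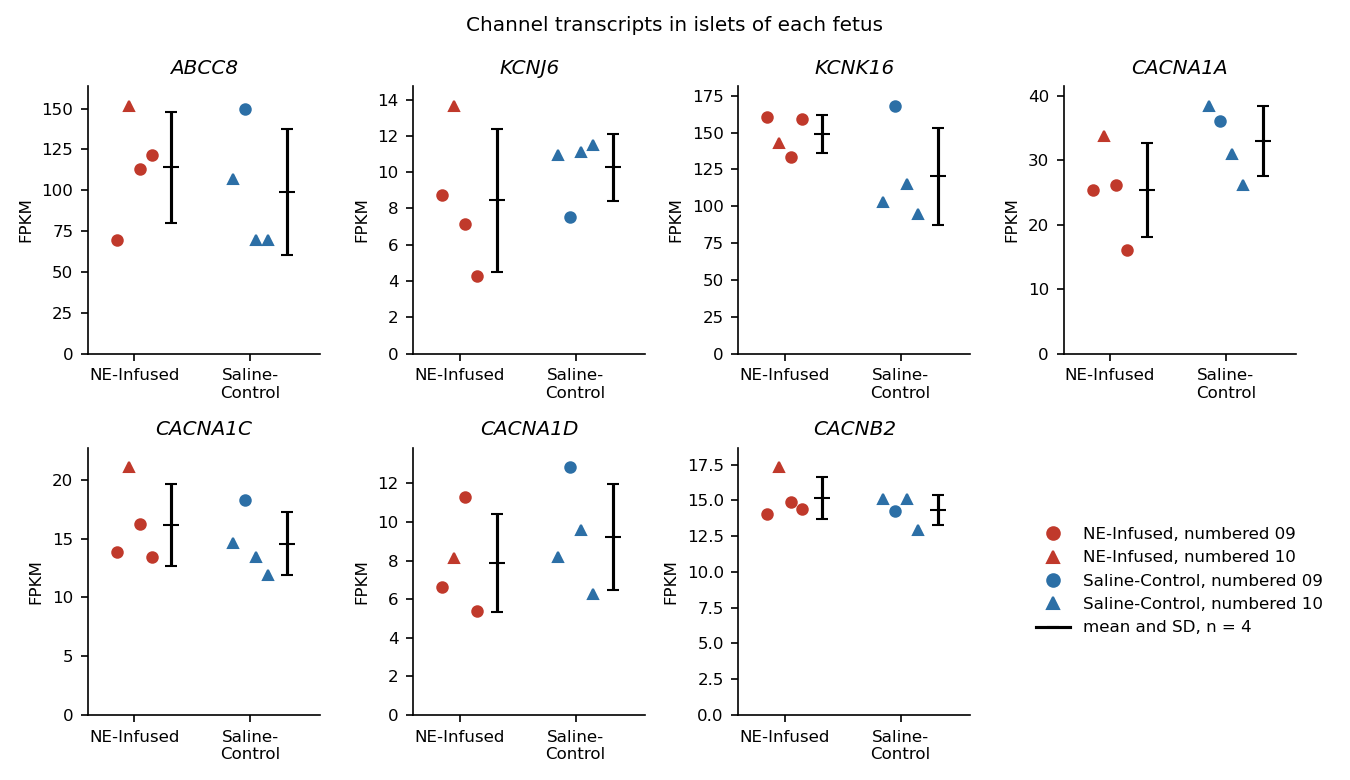
FPKM of the 7 tested channel genes in each fetus, NE-Infused at the left (red) and Saline-Control at the right (blue) of each panel, with circles for animals numbered 09 and triangles for those numbered 10; bars give the mean and SD (n = 4 each). The groups overlap in every panel, and NE-Infused 2, the red triangle, is the highest animal for ABCC8, KCNJ6, CACNA1C and CACNB2.

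ABCC8 encodes SUR1, the regulatory subunit of the beta cell KATP channel and the receptor of sulfonylurea drugs (15:34599763-34679444 on Oar_v3.1, the build of all coordinates here). It was at 69.3, 152, 113 and 122 FPKM in NE-Infused 1 to 4 and at 107, 149.8, 69.3 and 69.4 FPKM in Saline-Control 1 to 4. Each group held both high and low animals and the ranges nearly coincided. The means were 114 ± 34.0 FPKM in NE-Infused islets and 98.9 ± 38.3 FPKM in controls (SD, n = 4 each), a log2 difference of 0.22 (SE 0.30, 95% interval -0.45 to 0.90, limma adjusted p = 0.869). KCNJ11, which encodes the pore of this channel and neighbours ABCC8 in the RefSeq annotation of sheep, could not be set beside it.

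The other KATP subunits of muscle and vessel type were low except in 1 animal. ABCC9, which encodes SUR2, was at 1.98, 1.31, 1.59 and 12.9 FPKM in NE-Infused 1 to 4 and at 1.45, 2.56, 2.16 and 3.53 FPKM in Saline-Control 1 to 4. KCNJ8, the pore gene that pairs with SUR2 in vascular smooth muscle and pericytes, was at 1.57, 0.743, 0.270 and 10.4 FPKM in NE-Infused 1 to 4 and at 0.738, 0.700, 0.648 and 1.94 FPKM in Saline-Control 1 to 4. NE-Infused 4 stood apart for both genes, and it also had the highest stromal marker sum, 1654 FPKM. ABCC8 exceeded ABCC9 by a factor of 9.40 in that animal and of 34.9 to 115 in the other NE-Infused animals.

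KCNJ6 encodes GIRK2, an inward-rectifier potassium channel opened by G protein beta-gamma subunits (1:267852218-268198385). Its values were 8.77, 13.7, 7.13 and 4.26 FPKM in NE-Infused 1 to 4 and 10.9, 7.53, 11.1 and 11.5 FPKM in Saline-Control 1 to 4. NE-Infused 2 was above all controls, whereas NE-Infused 3 and 4 were below all of them, and Saline-Control 2 stood below the other controls. The means were 8.45 ± 3.94 FPKM in NE-Infused islets and 10.3 ± 1.84 FPKM in controls (SD, n = 4 each), a log2 difference of -0.33 (SE 0.29, 95% interval -0.99 to 0.32, limma adjusted p = 0.792). With the number digits in the model the difference was 0.04, of the opposite sign.

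KCNJ6 overlapped between the treatment groups but not between the numbers, which also differ in fetal age and weight. Animals numbered 10 ran from 10.9 to 13.7 FPKM and those numbered 09 from 4.26 to 8.77 FPKM. Of all tested genes, 10.6% were likewise higher without overlap in animals numbered 10. In a limma model with treatment, KCNJ6 was higher in animals numbered 10 by 0.74 on the log2 scale (SE 0.23, adjusted p = 0.0637), which did not pass the threshold. With 1 animal left out, it passed without NE-Infused 1 (limma adjusted p = 0.0488) or NE-Infused 4 (0.0262). It did not pass without NE-Infused 3 or Saline-Control 1, 3 or 4 (0.0865 to 0.111). Without NE-Infused 2 the difference by number rests on Saline-Control 2 alone against the other controls, and was 0.51. Without Saline-Control 2 it rests on NE-Infused 2 alone against the rest of its group, and was 0.97. The call cannot be judged in these runs.

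KCNJ3 encodes GIRK1, which joins GIRK2 in heteromeric channels, and it was the channel gene whose pattern was most like that of KCNJ6. It was at 36.3, 51.1, 40.3 and 31.9 FPKM in NE-Infused 1 to 4 and at 53.5, 42.2, 56.3 and 52.7 FPKM in Saline-Control 1 to 4. The log2 difference was -0.36 (SE 0.16, limma adjusted p = 0.666) and -0.15 with the number digits in the model. Between the numbers it was 0.42 higher in animals numbered 10 (SE 0.11, adjusted p = 0.0395), with 51.1 to 56.3 FPKM in those numbered 10 and 31.9 to 42.2 FPKM in those numbered 09. That call was lost with no filter on low values (limma adjusted p = 0.0652), without NE-Infused 1 (0.0546) and without Saline-Control 1, 3 or 4 (0.0689 to 0.0910). Without NE-Infused 2 or Saline-Control 2 the difference by number rests on 1 animal. It was then 0.35 and 0.49, and the call cannot be judged. KCNJ6 made up 16.8 ± 4.24% of the summed KCNJ3 and KCNJ6 FPKM in NE-Infused islets and 16.6 ± 1.15% in controls (SD, n = 4 each).

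**Figure D2:**
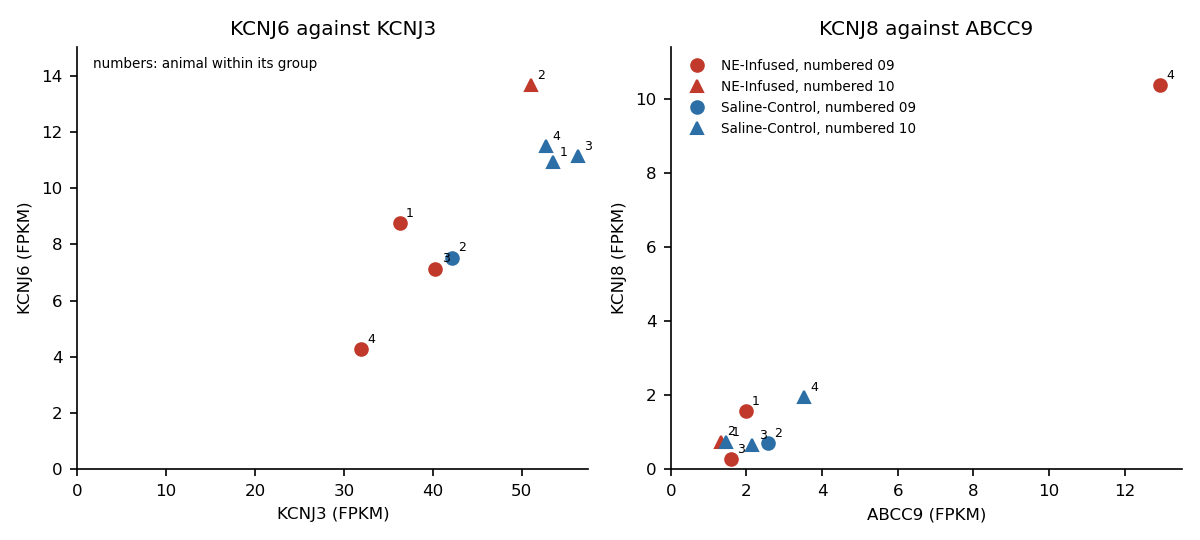
FPKM of KCNJ6 against KCNJ3 (left) and of KCNJ8 against ABCC9 (right) in each fetus, with red for NE-Infused and blue for Saline-Control, circles for animals numbered 09 and triangles for those numbered 10, and small digits for the animal within its group. The 4 triangles lie above the 4 circles on both axes at the left, and NE-Infused 4 lies far from the rest at the right.

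KCNK16 encodes TALK-1, a background potassium channel of the K2P family that is abundant in human and mouse beta cells and limits their depolarisation (20:13215916-13224512). Its values were 161, 143, 133 and 159 FPKM in NE-Infused 1 to 4 and 103, 168, 115 and 95.04 FPKM in Saline-Control 1 to 4. The NE-Infused animals lay close together above 3 of the 4 controls, and Saline-Control 2 was the highest of all animals. The means were 149 ± 13.2 FPKM in NE-Infused islets and 120.4 ± 32.9 FPKM in controls (SD, n = 4 each), a log2 difference of 0.34 (SE 0.18, 95% interval -0.07 to 0.75, limma adjusted p = 0.701). With the number digits in the model the difference was 0.15.

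CACNA1A encodes the pore of the P/Q-type calcium channel, which carries part of the calcium current for secretion in human beta cells (5:10274602-10476593). It was at 25.4, 33.8, 26.2 and 16.1 FPKM in NE-Infused 1 to 4 and at 38.5, 36.1, 31.0 and 26.3 FPKM in Saline-Control 1 to 4. NE-Infused 1, 3 and 4 lay below every control, and NE-Infused 2 lay among them. The means were 25.4 ± 7.27 FPKM in NE-Infused islets and 33.0 ± 5.45 FPKM in controls (SD, n = 4 each), a log2 difference of -0.40 (SE 0.22, 95% interval -0.89 to 0.10, limma adjusted p = 0.708). With gestational age in the model the difference was 0.02, of the opposite sign but close to 0.

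CACNA1C encodes the L-type pore Cav1.2, the main L-type channel of mouse beta cells (3:212427276-212792889). Its values were 13.9, 21.1, 16.2 and 13.5 FPKM in NE-Infused 1 to 4 and 14.6, 18.3, 13.5 and 11.95 FPKM in Saline-Control 1 to 4. NE-Infused 2 was the highest animal and the other animals of both groups lay among each other. The means were 16.2 ± 3.49 FPKM in NE-Infused islets and 14.6 ± 2.70 FPKM in controls (SD, n = 4 each), a log2 difference of 0.13 (SE 0.18, 95% interval -0.28 to 0.54, limma adjusted p = 0.870).

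CACNA1D encodes the L-type pore Cav1.3, which opens at lower voltages than Cav1.2 and is prominent in human islets (19:47153174-47501739). It was at 6.63, 8.12, 11.3 and 5.40 FPKM in NE-Infused 1 to 4 and at 8.21, 12.8, 9.58 and 6.28 FPKM in Saline-Control 1 to 4. The highest animal of each group was its female fetus, and the groups overlapped over most of their range. The means were 7.86 ± 2.54 FPKM in NE-Infused islets and 9.23 ± 2.76 FPKM in controls (SD, n = 4 each), a log2 difference of -0.21 (SE 0.25, 95% interval -0.78 to 0.36, limma adjusted p = 0.849).

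As a share of the 6 listed calcium channel pore genes, CACNA1C had no overlap between the groups, while CACNA1A and CACNA1D overlapped. CACNA1B, CACNA1E, CACNA1G and CACNA1H had no row under their symbols and are missing from the sum. The CACNA1C share was singled out after its values were seen and is given with no test. No background over other genes was computed for it, and it is not independent of the ratio of CACNA1A to CACNA1C given next. Of the summed FPKM of the 6 listed pore genes, CACNA1C made up 30.1, 32.4, 30.1 and 37.5% in NE-Infused 1 to 4 and 23.6, 27.1, 24.6 and 26.6% in Saline-Control 1 to 4. Every NE-Infused animal was above every control. CACNA1A made up 50.1 ± 4.40% in NE-Infused islets and 57.6 ± 3.58% in controls, with overlap, and CACNA1D made up 15.7 ± 3.65% in NE-Infused islets and 15.9 ± 2.77% in controls (SD, n = 4 each).

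The ratio of CACNA1A to CACNA1C FPKM was 1.83, 1.604, 1.62 and 1.19 in NE-Infused 1 to 4 and 2.63, 1.98, 2.30 and 2.196 in Saline-Control 1 to 4. The groups did not overlap. The means were 1.56 ± 0.265 in NE-Infused islets and 2.28 ± 0.272 in controls (SD, n = 4 each). On the log2 scale the ratio differed by -0.55, by -0.38 among animals numbered 09 and by -0.56 among those numbered 10. Each of the values by number has 1 animal on one side, Saline-Control 2 or NE-Infused 2, and so no replicate check there. With gestational age in the model the difference was -0.26. This pair was singled out after its values were seen, as 1 of 2 among 21 pairs of the tested channel genes whose ratio did not overlap between groups, so no test is given. The ratio of CACNA1A to CACNB2 was the other, at 1.12 to 1.95 in NE-Infused islets and 2.04 to 2.55 in controls. No background over other genes was computed for ratios to CACNB2, nor for the count of 2 among 21 pairs. Both ratios hold CACNA1A and are not independent of each other. Among 13251 other tested genes set over CACNA1C in the same way, 2.51% had a lower ratio without overlap in NE-Infused islets and 0.294% a higher one.

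**Figure D3:**
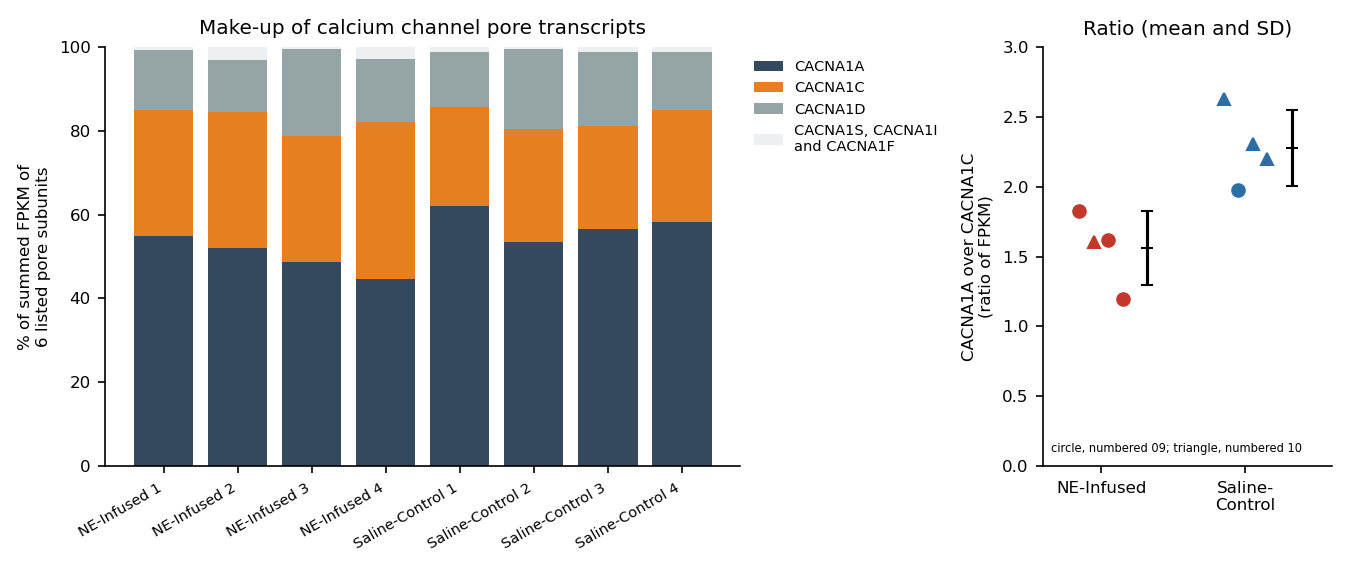
At the left, stacked bars give the share of each calcium channel pore gene in the summed FPKM of the 6 listed pore genes, 1 bar per fetus, NE-Infused before Saline-Control; at the right, the ratio of CACNA1A to CACNA1C in each fetus with mean and SD (n = 4 each). The orange CACNA1C share is 30.1 to 37.5% in NE-Infused islets and 23.6 to 27.1% in controls, and the ratio is 1.19 to 1.83 in NE-Infused islets and 1.98 to 2.63 in controls.

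CACNB2 encodes a beta subunit, the cytoplasmic partner that brings the pores to the membrane and shapes their gating (13:31828331-32071214). Its values were 14.0, 17.3, 14.9 and 14.4 FPKM in NE-Infused 1 to 4 and 15.1, 14.2, 15.1 and 12.9 FPKM in Saline-Control 1 to 4. It had the narrowest range for its level of the 7 genes, and 3 of the NE-Infused animals lay within the range of the controls. The means were 15.2 ± 1.48 FPKM in NE-Infused islets and 14.3 ± 1.05 FPKM in controls (SD, n = 4 each), a log2 difference of 0.07 (SE 0.12, 95% interval -0.21 to 0.35, limma adjusted p = 0.895). The main beta subunit transcript was CACNB3, at 70.1 ± 6.39 FPKM in NE-Infused islets and 75.5 ± 7.05 FPKM in controls, while CACNB2 made up 16.3 ± 2.26% of summed beta subunit FPKM in NE-Infused islets and 14.7 ± 1.01% in controls.

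TRPM5, a calcium-activated cation channel that amplifies insulin release in mouse beta cells (21:48401236-48415380), was listed at 0 in 6 of the 8 animals. The exceptions were NE-Infused 3 with 0.0979 FPKM and Saline-Control 2 with 0.0637 FPKM, which are the female fetuses and are both numbered 09. No difference was tested at this level.

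The order of the levels, on the FPKM scale and so per transcript length, was much alike from animal to animal. KCNK16 was above ABCC8 in 6 of 8 animals, 3 in each group, and their means did not differ beyond their spread. Both lay high among all tested genes, with 92.4% of tested genes below KCNK16 in mean FPKM and 90.4% below ABCC8. CACNA1A came next in all 8 animals. CACNA1C and CACNB2 followed and could not be ordered, since CACNA1C was the higher in 3 of 8 animals. KCNJ6 and CACNA1D could not be ordered either, since KCNJ6 was the higher in 5 of 8. TRPM5 was last in every animal.

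**Figure D4:**
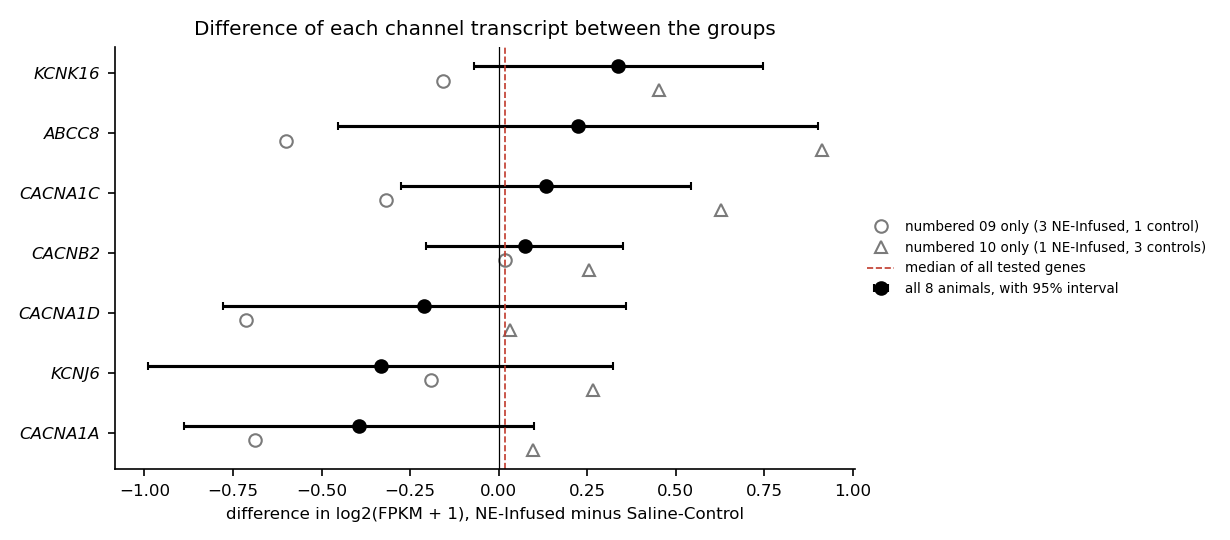
Difference in log2(FPKM + 1), NE-Infused minus Saline-Control, for the 7 tested channel genes (black, with 95% interval) and the same difference among animals numbered 09 (open circles) and numbered 10 (open triangles); the dashed line is the median of all tested genes at 0.02. Every interval includes 0, and the triangle is at the right of the circle for all 7 genes.

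Within the animals of one number the comparison gave opposite directions for most of these genes. Among animals numbered 09 (3 NE-Infused, 1 control) the log2 difference was below 0 for 6 of the 7 genes, from -0.16 for KCNK16 to -0.71 for CACNA1D, with CACNB2 at 0.02. Among animals numbered 10 (1 NE-Infused, 3 controls) it was above 0 for all 7, from 0.03 for CACNA1D to 0.91 for ABCC8. Each of these comparisons has 1 animal on one side, Saline-Control 2 or NE-Infused 2, so it has no replicate check there. The 7 differences within one number share that animal and are not independent of each other. NE-Infused 2 was the highest of its group for 5 of the 7 genes, all but KCNK16 and CACNA1D.

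Ion channels beyond these genes were examined in 11 families holding 208 symbols, of which 185 were listed and 102 tested. Means were higher in NE-Infused islets for 44 and lower for 58, with a median log2 difference of -0.05, against 0.02 over all tested genes. None had a limma adjusted p below 0.05, and the lowest was 0.574. At an unadjusted p below 0.05, 3 were higher (KCNE1, KCNH2 and ORAI2), against 3.61% of all tested genes, and 4 lower (CACNG7, KCNK9, NALCN and TTYH3), against 3.74%. Group ranges without overlap were found for 0 genes higher in NE-Infused islets, against 1.88%. KCNE1 and, further on, SCN3A are named for these counts, after their values were seen.

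CACNG7, a gamma subunit known from AMPA receptor and calcium channel regulation in the brain, had the lowest log2 difference of the 102, -1.08 (SE 0.36, limma adjusted p = 0.574). It was at 6.41, 18.2, 8.43 and 12.2 FPKM in NE-Infused 1 to 4 and at 35.03, 12.4, 25.6 and 26.8 FPKM in Saline-Control 1 to 4. The value of Saline-Control 2 lay within the NE-Infused range and those of the other controls above it. With the number digits in the model the difference was -0.55, and CACNG7 was higher by 1.07 in animals numbered 10 (adjusted p = 0.0217). That call by number was lost with no filter on low values (limma adjusted p = 0.0706). Without NE-Infused 2 or Saline-Control 2 the difference by number rests on 1 animal. It was then 1.16 and 0.98, and the call cannot be judged.

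KCNK9 encodes TASK-3, an acid-sensitive background potassium channel, and was low throughout. It was at 1.31, 3.16, 0.803 and 2.96 FPKM in NE-Infused 1 to 4 and at 4.63, 3.77, 4.28 and 3.46 FPKM in Saline-Control 1 to 4. All NE-Infused animals lay below all controls, as did those of 2.35% of all tested genes, though the log2 difference of -0.80 (SE 0.28) did not pass the limma test (adjusted p = 0.590). NALCN, the sodium leak channel, likewise had no overlap, with 2.91 to 5.13 FPKM in NE-Infused islets and 5.31 to 7.79 FPKM in controls (log2 difference -0.47, limma adjusted p = 0.657). The difference of NALCN was -0.0469 with gestational age in the model and -0.32 with the number digits.

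**Figure D5:**
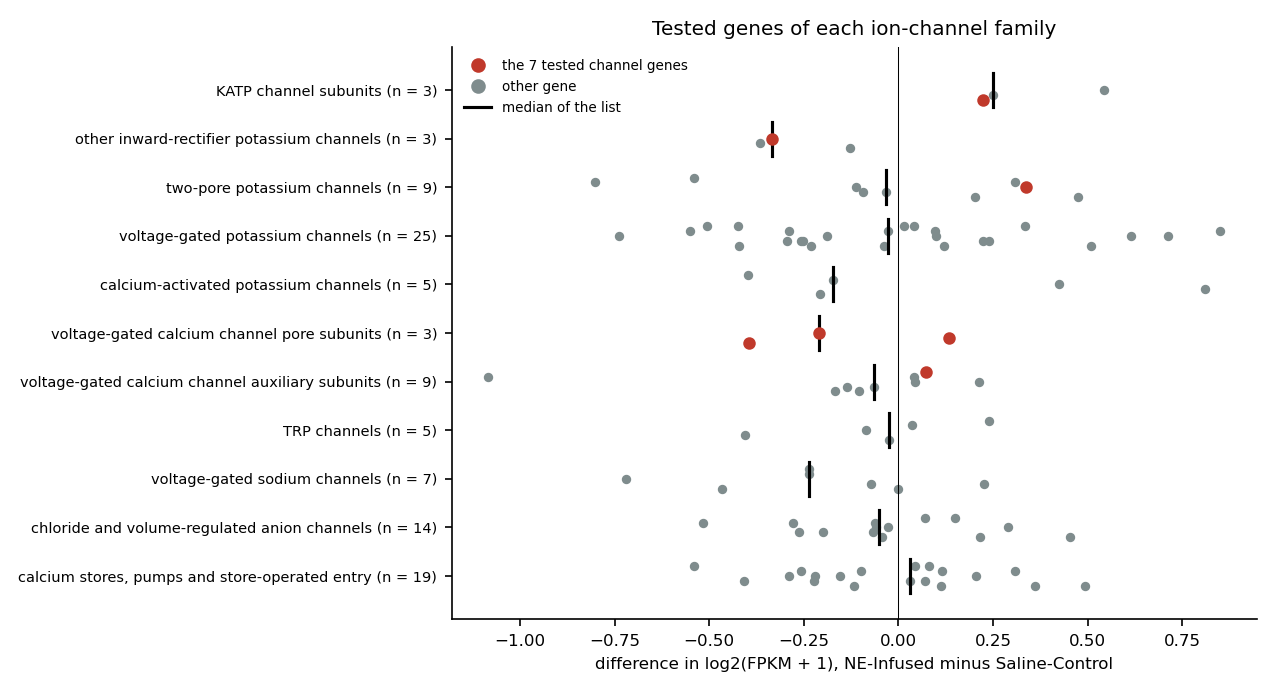
Difference in log2(FPKM + 1), NE-Infused minus Saline-Control, of each tested gene in 11 ion-channel families, with the 7 tested channel genes in red, other genes in grey and the median of each family as a black line. The voltage-gated calcium channel pores hold 1 gene above and 2 below 0, the family medians lie between -0.33 and 0.25, and no gene passes the test.

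Between the numbers, 16 of the 102 ion-channel genes had a limma adjusted p below 0.05 in the model with treatment, against 16.5% of all tested genes. Of these, 9 were higher in animals numbered 10, among them KCNJ3, CACNG7, SCN3A and PKD2, against a background of 6.06%, and 7 were lower, among them KCNK1, CALM2 and MCOLN1, against 10.4%. The count fell to 6 without Saline-Control 1 or 3 and to 9 without Saline-Control 4. No count is given without NE-Infused 2 or Saline-Control 2, where the difference by number rests on 1 animal. Of the 7 tested channel genes of secretion, 0 were among the 16. At an unadjusted p below 0.05 there were 2 of the 7, KCNJ6 and KCNK16, against 34.6% of all tested genes. The log2 difference of KCNK16, animals numbered 10 minus those numbered 09, was -0.38 (SE 0.16, limma adjusted p = 0.129).

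Likeness of pattern was described for each tested gene as the highest Pearson correlation of log2(FPKM + 1) over the 8 animals among the 101 other tested ion-channel genes. The partners were KCNH3 for ABCC8 (r = 0.93), KCNJ3 for KCNJ6 (r = 0.88), CALM2 for KCNK16 (r = 0.87), KCNMA1 for CACNA1A (r = 0.87), ABCC8 for CACNA1C (r = 0.82), KCND1 for CACNA1D (r = 0.85) and SCN8A for CACNB2 (r = 0.81). Without the 2 animals farthest from the median, r was 0.52 for CACNA1A and KCNMA1, 0.59 for CACNA1C and ABCC8 and 0.64 for CACNA1D and KCND1, while it was 0.83 to 0.97 for the other pairs. All of these share the same 8 libraries, which differ in summed FPKM by number, and each partner was picked as the highest of 101, so no p is given.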

How the data were processed

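RNA was measured in hand-picked islets of 8 fetuses, 4 NE-Infused and 4 Saline-Control, each a separate animal by its own number, age and weight in the labels. Selected mRNA was made into paired-end libraries with a TruSeq RNA kit, per the labels' protocols. Per the submitters' processing notes the tools were Cuffdiff, Cufflinks 2.1.1 and TopHat2 2.0.1, and the genome was Oar_v3.1. Use of strand was not given in the sources used here, nor were filters or annotation, and reads of a gene and its antisense partner may be mixed.

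The deposited table gives FPKM per gene and animal, per the file headers, and no counts. Absolute depth is therefore unknown and no counting interval is given. Columns were matched to animals by number, with 0 columns left out. Start coordinates were raised by 1 to count from 1. Gene names came from the file alone, and the RefSeq table of assembly ARS-UI_Ramb_v3.0 was used only for the neighbour of ABCC8.

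Values were analysed as log2(FPKM + 1) for the 13252 genes whose mean over the animals reached 1 FPKM. The test was limma 3.58.1 under R 4.3.3 (linear model, empirical Bayes with trend, two-sided, Benjamini-Hochberg over all tested genes, threshold 0.05), and the script was tested on simulated data. A second model held treatment and the first digits of the animal number. Alternatives were other pseudocounts, filters and scalings, covariates, a replicate block and leaving out each animal.

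The channel genes and all lists were chosen with earlier results of these data known. Beyond the channel genes, a rule named from each ion-channel family the 2 genes with the highest mean FPKM and the gene with the lowest unadjusted p, and for each tested channel gene its closest pattern. The count of ion-channel genes with lower values and no overlap in NE-Infused islets is not reported here. No sequence is shown because no sequence table was used here.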

Additional observations from a re-analysis of the deposited data

Results flagged for a closer look

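In 13 of 120 groups of 4 animals examined, the highest or lowest animal lay further from the nearest other one, as a share of the group's whole range, than Dixon's 95% critical value allows. Chance gives about 1 in 20 only for independent, normally distributed values. The values here were not log-transformed and the 120 groups share the same 8 libraries, so no excess can be read from the count. Saline-Control 2 stood apart most often. In the controls it was low for KCNJ6 (7.53 FPKM, others 10.9 to 11.5) and for PKD2, polycystin-2 (8.38 FPKM, others 16.1 to 17.5). It was high for KCNK1, the background potassium channel TWIK-1 (255 FPKM, others 90.4 to 109), for CALM2, a calmodulin gene (538 FPKM, others 302 to 324), and for CLCN3, a vesicular chloride transporter (59.0 FPKM, others 38.2 to 41.2). Saline-Control 2 is the only control numbered 09 and the only female control.

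NE-Infused 4 stood apart in its group for ABCC9 (12.9 FPKM, others 1.31 to 1.98) and KCNJ8 (10.4 FPKM, others 0.270 to 1.57). Its summed neuron and glia markers were low at 67.6 FPKM, with the others at 73.1 to 73.9. Saline-Control 4 was high among the controls for KCNJ8 (1.94 FPKM, others 0.648 to 0.738) and for summed endothelial markers (105 FPKM, others 74.6 to 79.6). CACNA2D2, an alpha2-delta calcium channel subunit, was high in NE-Infused 2 (45.3 FPKM, others 22.0 to 25.2). TRPM5 was listed above 0 only in NE-Infused 3 (0.0979 FPKM) and Saline-Control 2 (0.0637 FPKM). With the other animals at 0, these 2 groups meet the Dixon criterion by construction and say nothing beside the chance rate.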

How the results depend on the processing

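None of the 7 channel genes passed the threshold between NE-Infused and control islets under any alternative run, and leaving out any 1 animal changed no sign but moved the sizes. The log2 difference then ran from 0.07 (without NE-Infused 2) to 0.45 (without Saline-Control 2) for ABCC8, from -0.58 (without NE-Infused 2) to -0.08 (without NE-Infused 4) for KCNJ6, from 0.24 (without Saline-Control 4) to 0.51 (without Saline-Control 2) for KCNK16, from -0.54 (without NE-Infused 2) to -0.20 (without NE-Infused 4) for CACNA1A, from 0.006 (without NE-Infused 2) to 0.24 (without Saline-Control 2) for CACNA1C, from -0.38 (without NE-Infused 3) to -0.05 (without Saline-Control 2) for CACNA1D and from 0.01 to 0.11 for CACNB2. The count of all genes past the threshold was 0, and 1 with FPKM scaled to equal totals, with the number digits as covariate or without both females. It was 0 to 2 when 1 animal was left out, with 2 genes without NE-Infused 1 and 1 without NE-Infused 3. With gestational age as covariate, which overlaps little between the groups, the log2 difference was 0.41 for KCNJ6, against -0.33 without it. For KCNJ8 it was -1.03, against 0.54 without the covariate, so each was of opposite sign. Without NE-Infused 4, the youngest fetus at 137 days, KCNJ8 lay below the filter and was not fitted. The difference with gestational age was of opposite sign but close to 0 for KCNK16 (-0.0165), CACNA1A (0.0229), CACNA1D (0.0261), KCNJ3 (0.047) and ORAI2 (-0.0012). For the ratio of CACNA1A to CACNA1C it was -0.26. The alternatives for that ratio were chosen after seeing the data, and its log2 difference was -0.64 to -0.43 with 1 animal left out. With the number digits KCNJ6 was at 0.0383, against -0.33. Scaling to equal totals moved the median of all genes by -0.14, and CACNA1C to -0.0078 and CACNB2 to -0.0711. The cause was not tested.

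Ion-channel genes past the threshold between numbers 10 and 09 were 16, and 39 with equal totals and 3 with no filter. There were 6 to 17 when 1 animal other than NE-Infused 2 or Saline-Control 2 was left out. Without either of these, the difference between numbers rests on 1 animal. With equal totals that difference was 0.31 for ABCC8, 0.0678 for KCNK16 and 0.15 for CACNA1D, of opposite sign, and KCNJ6 (1.15, adjusted p = 0.0109) and CACNB2 (0.55, adjusted p = 0.0117) passed with limma. With 1 animal left out it was -0.89 to 0.62 for ABCC8, -0.19 to 0.59 for CACNA1A, -0.43 to 0.51 for CACNA1C, -0.63 to 0.11 for CACNA1D, 0.51 to 0.97 for KCNJ6 and -0.69 to -0.08 for KCNK16, whose lowest size was without Saline-Control 2.

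Replicate numbers shared by the groups did not pair the animals (correlations of deviations -0.16, -0.38, -0.03 and 0.09 for numbers 1 to 4). A replicate block gave 0 genes, with 646 at an unadjusted p below 0.05, and the ABCC8 difference stayed at 0.22. Without counts, depth could not set a limit for low values such as TRPM5.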
